A study of Malus domestica with 8 samples.

Results

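The line mdagg-3 is a CRISPR/Cas9 knock-out line of the apple cultivar 'Gala' (Malus domestica), and its 2 leaf libraries were set against the 2 libraries of non-transformed 'Gala' (wt), 4 of the 8 libraries of the series. The libraries were assigned to the 2 groups by their labels, and all features of the deposited tables entered the comparison. The series has 4 groups, namely wt, mdagg-3 and the knock-out lines mdagg-2 and mdagg-4. Every plant had spent 8 weeks under glass (22 °C, humidity of 80%) and received the resistance inducer acibenzolar-S-methyl (ASM), 0.2 g/l, as a spray, and leaves were taken after 3 days. Each group had 2 libraries, described as leaf bulks from 2 independent experiments, and no untreated plants or plants transformed without the knock-out are among the samples. The effect of the knock-out therefore cannot be told apart from effects of transformation and regeneration of the single line mdagg-3, and the response to ASM itself was not measured.

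MdAGG, the target of the knock-out, stands for apple agglutinin, a lectin that binds carbohydrates and belongs to the amaranthin-like proteins. ASM is a synthetic mimic of salicylic acid, the plant hormone that switches on defence gene expression and systemic resistance, and agglutinin genes of apple are known to respond strongly to it. The comparison asks which leaf transcripts of treated plants differ between mdagg-3 and wt.

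Total estimated reads were 34553348 and 36995885 in wt and 32350449 and 36381243 in mdagg-3. The tables list 52311 features by identifier, of which 32373 had enough reads in the 8 libraries to be tested. Of these identifiers 0 were found in the gene name table used as reference, so features are given by identifier, MdAGG and leaf cell type markers were not examined by name, and no sequence is shown. The identifiers carry an order: the 2 digits after the letters MD are the chromosome in the apple gene nomenclature (here called the field, with 00 for unplaced features), and the number after the letter G rises along it.

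Before the differences, 14 neighbouring features of field 10 are described, because the mdagg-3 libraries were unlike each other in them. They were picked after their values were seen. They lie among positions 265 to 284 of the 3421 identifiers of the field and are part of the 45 identifiers of 52311 whose number does not end in 00. Their lengths were 495 to 534 bases, 11 of them of 1 identical length, so reads may be shared between similar copies and their sum is more secure than each value. The 6 other identifiers in the span held 0 reads in every library.

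Summed over the 14 features, wt held 4737 and 2997 reads, which is 138 and 77.8 CPM (counts scaled to a common library size, here with TMM, a normalization that aligns the libraries on most features). In mdagg-3, replicate 1 held 868 reads (28.4 CPM) and replicate 2 held 8514 reads (237 CPM). Replicate 1 thus lay below both wt libraries and replicate 2 above both. In mdagg-2 the sums were 0.448 and 15.7 CPM, and in mdagg-4 they were 3.6 and 1.07 CPM. The 4 libraries of those lines thus lay below all 4 libraries of mdagg-3 and wt.

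The split was also seen in medians over the tested features of the group, which may share reads and need not be separate. Of the 14 features, 11 had enough reads to be tested, and over these the median log2 difference from the wt mean was -2 in mdagg-3 replicate 1 and 1.13 in replicate 2. It was -6.00 and -2.70 in the mdagg-2 libraries and -5.81 and -5.93 in those of mdagg-4. Of the 5 tested features on either side, the medians in mdagg-3 were 0.024 and -0.094 before the group and 0.68 and -0.29 after it. In the comparison of mdagg-3 with wt the 11 features gave a median log2 difference of 0.226 in edgeR's fit and of -0.562 on the mean of log2 CPM. These differ in sign, as the replicates do, and 4 of the 11 were lower in the fit. The smallest unadjusted p of edgeR among them was 0.39. The files do not say what these features encode, and whether they are the transcripts the knock-out was aimed at was not tested. If they are, mdagg-3 replicate 2, which lay above both wt libraries, is unlike the other knock-out libraries. An RNA level alone does not show whether a gene is knocked out, and whether this library matches its label was not tested. In the field 06 run described below, the mdagg-3 libraries were alike (medians of -0.941 and -1.04 from the wt mean). That run was outlined after its values were seen in these libraries, so nothing about the label is read from it. Every mean of mdagg-3 below includes replicate 2. Counts by the 2-fold rule, the levels of named features and the medians of runs are therefore also given for each mdagg-3 library, whereas shares by abundance bin, shares by field and window medians are given for both together.

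**Figure D1:**
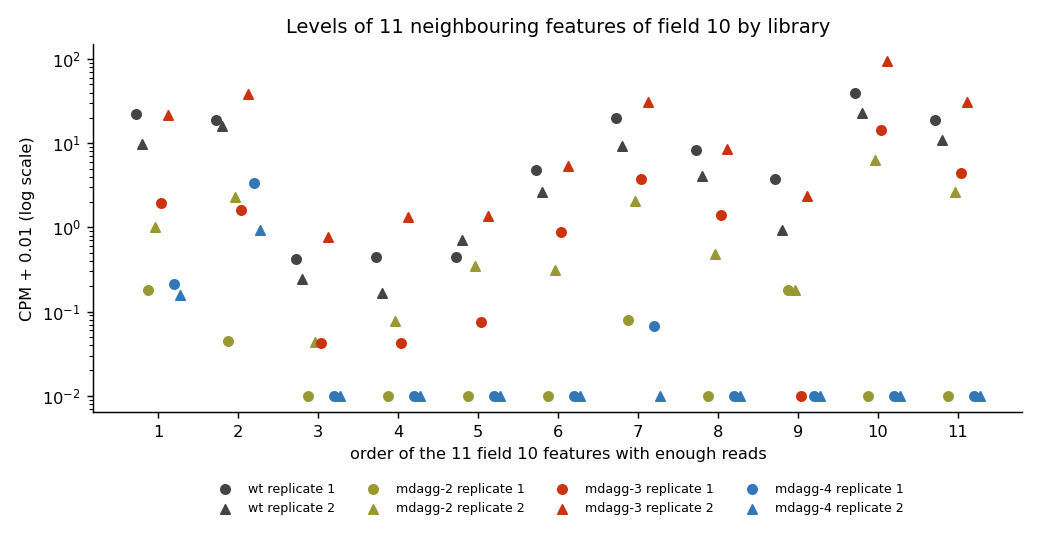
CPM (log scale, 0.01 added) of the 11 tested field 10 features in each of the 8 libraries, in identifier order. Red circles, mdagg-3 replicate 1, lie below both dark grey wt libraries in all 11 features. Red triangles, mdagg-3 replicate 2, lie above both in 9 of the 11. Nothing is read from these counts, since the features were picked after their values were seen and may share reads. Points at the bottom of the axis are at 0 reads.

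Across all 32373 tested features, 0 were higher and 0 lower in mdagg-3 at an adjusted p under 0.05 (0% called in each direction) in edgeR's quasi-likelihood test on all 8 libraries, and the smallest adjusted p was 0.9. At an unadjusted p under 0.05 there were 1014 features (3.13%), 639 higher (1.97%) and 375 lower (1.16%). With only the 4 libraries of mdagg-3 and wt in the fit, edgeR again called 0 in each direction (0% of 31461), with a smallest adjusted p of 0.0555. That fit had 2290 features at an unadjusted p under 0.05, 993 higher and 1297 lower. DESeq2 on all 8 libraries called 31 higher (0.083%) and 9 lower (0.0241%), and on the 4 libraries 116 higher (0.344%) and 361 lower (1.07%). The side with more features thus differed between the fit of 8 and the fit of 4 libraries. Without the low-count filter the 4-library edgeR fit gave 104 higher (0.261%) and 326 lower (0.818%).

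The spread differed between the groups. The median absolute log2 difference between the 2 libraries of a group was 0.273 in wt, 0.324 in mdagg-3, 0.382 in mdagg-2 and 0.321 in mdagg-4. A 2-fold or larger gap between the replicates was seen in 7.07% of features in wt, 7.69% in mdagg-3, 16.5% in mdagg-2 and 10.8% in mdagg-4. The common coefficient of variation in edgeR was 0.28 with 8 libraries and 0.226 with 4. Between 1 mdagg-3 and 1 wt library the median absolute difference was 0.219 to 0.349. The lowest of these was below the value within every group, and the highest was above those within wt, mdagg-3 and mdagg-4.

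To describe direction and size with the libraries themselves, features were counted where both mdagg-3 libraries lay at least 2-fold beyond both wt libraries in log2 CPM. There were 170 such features higher in mdagg-3 (0.525%) and 318 lower (0.982%). No test stands behind these counts. Without any size requirement, both mdagg-3 libraries lay above both wt libraries in 5472 features (16.9%) and below both in 5310 (16.4%). The excess of lower features was thus in the large differences and not in the direction of all features, whose median log2 difference was 0.00462. When 1 mdagg-3 library stood alone against wt, the counts were 449 higher and 875 lower without replicate 1 and 513 and 800 without replicate 2. When 1 wt library was left out, they were 875 and 868 without replicate 1 and 387 and 575 without replicate 2, so the excess of lower features was not seen without wt replicate 1.

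The 2 directions of the 2-fold rule differed in abundance. Among the 15895 features with a mean of at least 10 CPM over the 4 libraries, 87 were lower by the 2-fold rule and 11 higher. From 10 to 100 CPM the shares were 0.569% lower and 0.0562% higher, and at 100 CPM and above 0.363% lower and 0.181% higher (6 and 3 features). From 1 to 10 CPM they were 1.11% lower and 0.639% higher, and under 1 CPM 2.06% lower and 1.7% higher. The authors' deposited table leaned the same way from 10 to 100 CPM, with 37 of 14241 features higher and 188 lower. Over all features with an adjusted p in that table the shares were 0.363% and 1.13%. The fit of 8 libraries and the plain order of the libraries did not lean this way. From 10 to 100 CPM, 153 of the 14241 features were higher and 67 lower at an unadjusted edgeR p under 0.05 in that fit. Over all tested features the shares were 1.97% and 1.16%. Without a size requirement both mdagg-3 libraries lay above both wt libraries in 2084 of these 14241 features and below both in 1921. At 100 CPM and above it was 352 and 147 of 1654 features, beside 16.9% and 16.4% of all tested features. Each mdagg-3 library was also taken singly against both wt libraries over the 15895 features at 10 CPM and above. Replicate 1 was at least 2-fold beyond both wt libraries in 63 features higher and 124 lower, and replicate 2 in 42 and 192. The wt libraries were not taken singly at this level. Whether the lean here depends on wt replicate 1, as the excess over all features did, was not tested. The higher features had a median of 0.965 CPM and a median length of 998 bases, and the lower features had 3.5 CPM and 1493 bases, beside 9.61 CPM and 1515 bases for all tested features. The median log2 difference was 2.07 for the higher and -1.78 for the lower features. With the 10 higher and 13 lower features that had 0 reads in 1 group set at a floor of 3 reads per library, the medians were 2.06 and -1.75.

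**Figure D2:**
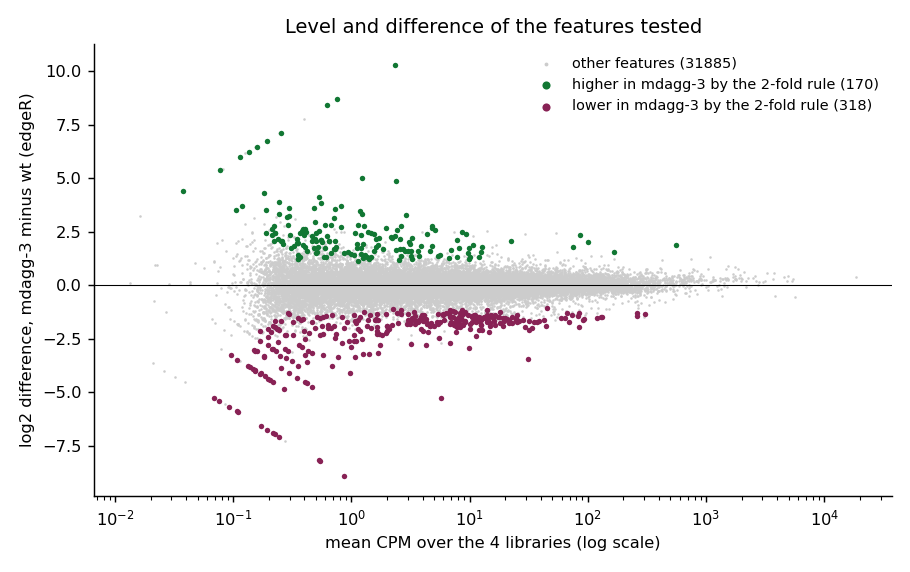
Log2 difference of mdagg-3 from wt in edgeR's fit against the mean CPM of the 4 libraries (log scale), 1 point per tested feature. Coloured points meet the 2-fold rule, 170 higher and 318 lower; above 10 CPM the coloured points are mostly below 0 (87 lower, 11 higher), and the diagonal rows at low CPM are features with 0 reads in 1 group.

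The lower features were also those that varied within the other lines. Over the 318 lower features the median level was 4.99 and 5.97 CPM in wt and 1.82 and 1.39 CPM in mdagg-3. It was 0.948 and 4.57 CPM in mdagg-2 replicates 1 and 2, and 3.55 and 8.92 CPM in mdagg-4 replicates 1 and 2. The mdagg-3 libraries thus lay between the replicates of mdagg-2 and below both of mdagg-4. Replicate 2 was at least 2-fold above replicate 1 in 81.8% of the 318 within mdagg-2 and in 73% within mdagg-4, against 9.93% and 5.93% of all tested features. For the 87 lower features of at least 10 CPM these shares were 93.1% and 92%. The mdagg-2 and mdagg-4 libraries had no part in the 2-fold rule. The median gap between replicates over the 318 was 2.5 on the log2 scale in mdagg-2 and 1.36 in mdagg-4, and 0.33 in wt and 0.371 in mdagg-3, where the rule itself limits it. What moves these features within a line was not tested, and the fit of 8 libraries counts that movement as spread.

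The higher features, most of them of low level, are set beside the other lines in the same way. Over the 170 features the median level was 0.321 and 0.286 CPM in wt, 1.44 and 1.57 in mdagg-3, 1.07 and 0.71 in mdagg-2, and 1.06 and 1.01 in mdagg-4. The rule chose features low in wt and high in mdagg-3, so the order of these 2 groups is given by the choice, and mdagg-2 and mdagg-4 are read against the same wt libraries. Replicate 1 was at least 2-fold above replicate 2 in 33.5% of the 170 within mdagg-2 and in 22.4% within mdagg-4, against 6.55% and 4.84% of all tested features. The median gap between replicates over the 170 was 0.837 on the log2 scale in mdagg-2 and 0.72 in mdagg-4. At 10 CPM and above it was 2.57 and 1.68 for the 11 higher features, beside 2.84 and 1.4 for the 87 lower features, and no difference between the directions was tested.

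**Figure D3:**
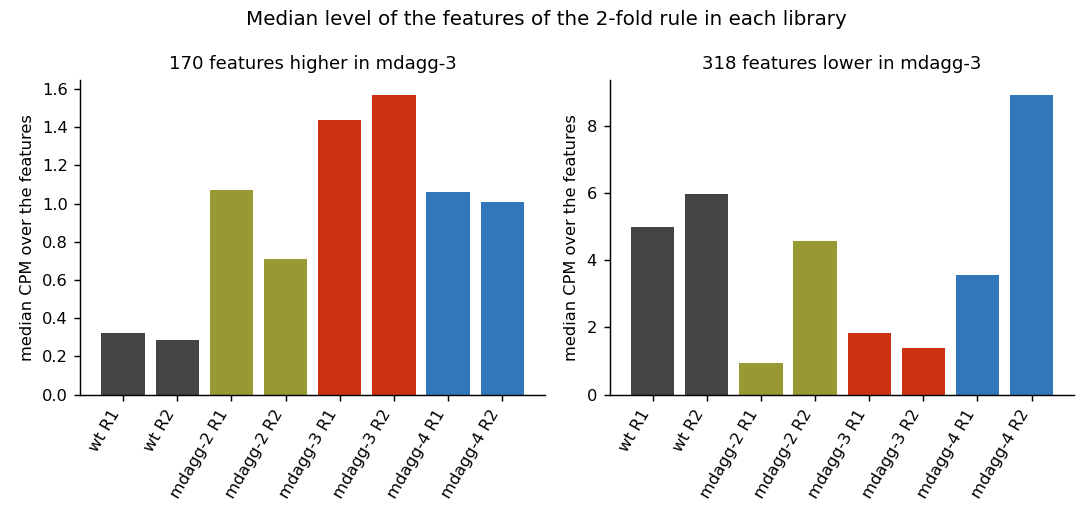
Bars give the median CPM over the 170 higher features (left) and the 318 lower features (right) in each library. On the right the mdagg-2 libraries stand at 0.948 and 4.57 CPM and the mdagg-4 libraries at 3.55 and 8.92 CPM, while both mdagg-3 libraries stand at 1.82 and 1.39 CPM.

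The identifiers named here, 4 in all, are those with the smallest p in each direction among features with a mean of at least 1 CPM. MD13G1190500 held 14 and 14 reads in wt, 66 and 67 in mdagg-3, 52 and 70 in mdagg-2 and 353 and 478 in mdagg-4. Both mdagg-3 libraries lay above both wt libraries and below both mdagg-4 libraries. Its level was 2.01 ± 0.209 CPM in mdagg-3 and 0.386 ± 0.0319 CPM in wt (SD, n = 2 each), and edgeR's log2 difference was 2.37 ± 0.3 (SE) with an adjusted p of 0.9.

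MD08G1171700 held 0 reads in both wt libraries and 181 and 121 in mdagg-3. The other lines had 0 and 3 reads in mdagg-2 and 0 and 1 in mdagg-4, so the feature was read in mdagg-3 and almost nowhere else in the series. At 4.64 ± 1.81 CPM (SD, n = 2) it was at least 56.1-fold higher in mdagg-3 than the floor of 3 reads per library in wt (edgeR adjusted p = 0.9, DESeq2 adjusted p on the 4 libraries = 3.04e-07). Per length it stood at 23.2 and 15 TPM (a level scaled by feature length and library size) in the mdagg-3 libraries and is listed at 0 in wt.

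MD03G1204400 held 92 and 105 reads in wt and 19 and 22 in mdagg-3. The mdagg-2 libraries held 60 and 83 and the mdagg-4 libraries 92 and 114, so the mdagg-3 libraries were the lowest 2 of the 8. The level was 0.617 ± 0.00681 CPM in mdagg-3 and 2.71 ± 0.0288 in wt (SD, n = 2 each). With 19 and 22 reads in mdagg-3, and a feature chosen by its smallest p, SDs this small do not measure precision. The log2 difference fitted by edgeR was -2.13 ± 0.31 (SE) at an adjusted p of 0.9. The difference between mdagg-3 and the other lines was not tested.

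MD05G1005300 held 80 and 105 reads in wt and 11 and 7 in mdagg-3. The other lines held 6 to 10 reads, so mdagg-3 was like them. edgeR gave it a log2 difference of -3.19 ± 0.47 (SE) and an adjusted p of 0.9. Over 15 other fits the adjusted p of edgeR or DESeq2 ranged from 0.000568 to 1 for MD13G1190500, from 3.04e-07 to 1 for MD08G1171700, from 0.00328 to 1 for MD03G1204400 and from 0.000174 to 1 for MD05G1005300, and each was past the threshold in the 2 DESeq2 fits. Fits added after seeing the data are not in these ranges. In the authors' deposited table their adjusted p values were 0.0128, 2.9e-07, 0.00823 and 0.000167, all in the same direction as here. The shared direction carries no weight, because the features were chosen by p on libraries that the authors' deposited table also used.

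Some features were read in both libraries of 1 group and in neither library of the other. With at least 10 reads in each library of the group, there were 6 in mdagg-3 and 7 in wt. Of the 6, 3 also had at least 10 reads in a library of mdagg-2 or mdagg-4, and 1 had 0 reads in all 4 libraries of those lines. Of the 7, 5 had at least 10 reads in a library of the other lines and 2 had 0 reads in all 6 libraries of the 3 lines. The highest count among them was 181 reads in mdagg-3 and 63 in wt.

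The authors' deposited table for mdagg-3 lists 117 features higher (0.363% of the 32237 with an adjusted p) and 363 lower (1.13%), with median log2 fold changes of 1.65 and -1.5 in that table. In all 117 and all 363 the mdagg-3 and wt libraries did not overlap, beside 16.9% and 16.4% of all tested features, and nothing is read from this because the features of the authors' deposited table were called on these libraries. The 2-fold rule held 71 of the 117 higher (60.7%) and 200 of the 363 lower features (55.1%) of the authors' deposited table, which is 41.8% of the 170 and 62.9% of the 318. In the edgeR fit of 8 libraries, 85 of the 117 and 71 of the 363 had an unadjusted p under 0.05, beside 1.97% higher and 1.16% lower over all tested features. That fit holds the same 4 libraries. In abundance the lists of the authors' deposited table also differed, with a median of 8.16 CPM for the higher and 11.8 CPM for the lower features. Over the 363 lower features of the authors' deposited table the median level was 15.2 and 19.2 CPM in wt, 6.71 and 4.87 in mdagg-3, 3.21 and 18.5 in mdagg-2 and 12.6 and 32.5 in mdagg-4. The gap between the mdagg-2 replicates was thus larger than the difference between mdagg-3 and wt.

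By identifier, the differences were spread over all 18 fields. The share of tested features lower by the 2-fold rule ranged from 0.389% in field 14 to 1.67% in field 09, and fields 04 and 12 followed with 1.64% and 1.48%. The share of higher features ranged from 0.237% in field 15 to 0.908% in field 14. Field 14 was the single field of the 18 with more higher than lower features (14 and 6). Of the lower features 38 of 318 (11.9%) had another within 5 identifiers, and of the higher 15 of 170 (8.82%), and no chain of such neighbours held more than 3 features. By the rule 0.982% of all tested features were lower and 0.525% higher. How many neighbours these rates alone would give was not worked out, so no grouping is read from the counts.

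The median log2 difference of a field, over features with a mean log2 CPM above 3, was 0.1 in field 14 and between -0.028 and 0.023 in the other fields. In field 14 the first 293 of these features in identifier order had a median of 0.39, with 91.5% above 0, and the remaining 586 had a median of -0.001, with 49.7% above 0. Of the first 293, 64 were higher at an unadjusted edgeR p under 0.05, and of the remaining 586 it was 9, beside 1.97% of all tested features. This split was made only in field 14, the field that stood out, so nothing is read from these counts. Against the wt mean, the median of the first 293 was 0.4 in mdagg-3 replicate 1 and 0.34 in replicate 2. That of the remaining 586 was 0.012 and -0.0054. The mdagg-2 and mdagg-4 libraries were not examined over these features, so whether the rise is particular to mdagg-3 was not tested. By the 2-fold rule the counts were 1 and 2.

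**Figure D4:**
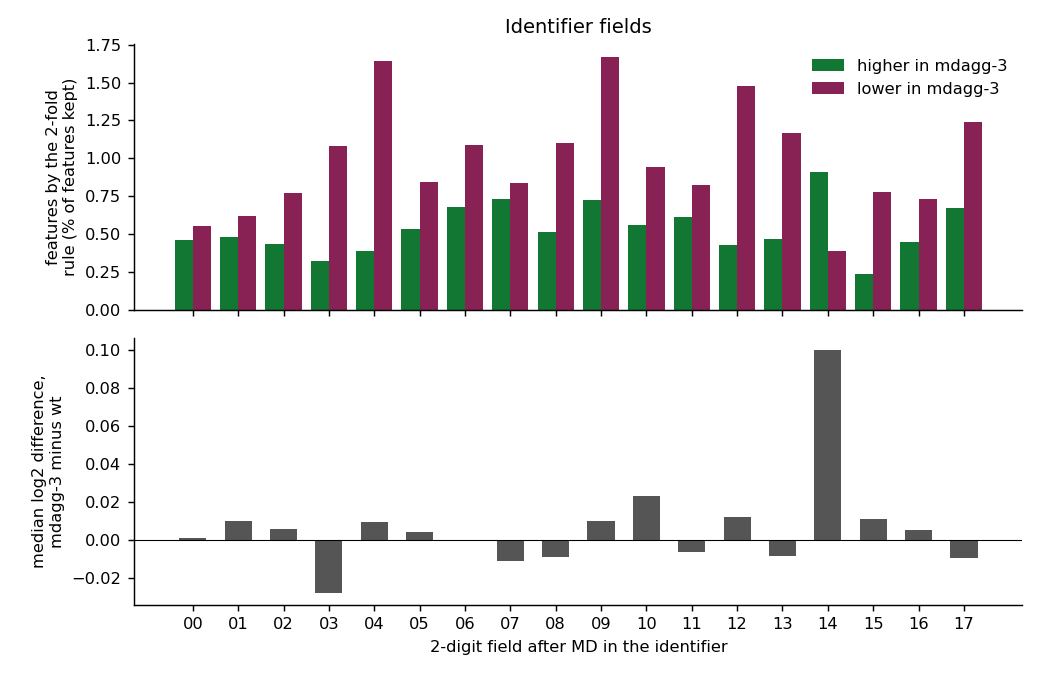
Upper panel, share of tested features in each identifier field that were higher (green) or lower (purple) in mdagg-3 by the 2-fold rule; lower panel, median log2 difference of mdagg-3 from wt per field. Field 14 stands out with a median of 0.1 and more higher (0.908%) than lower (0.389%) features; field 09 has the highest share of lower features (1.67%).

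A shorter stretch of neighbouring features was lower in field 06. It was outlined after its values were seen, so its values are a description with no test. The run holds 34 identifiers, positions 570 to 603 of the 2405 of the field, of which 15 had enough reads to be tested. Over these 15 the median log2 difference from the wt mean was -0.941 in mdagg-3 replicate 1 and -1.04 in replicate 2. In the mdagg-2 libraries it was -0.0975 and 0.0334, in those of mdagg-4 -0.0111 and -0.015, and the wt libraries stood at -0.0951 and 0.0951. The drop was thus of similar size in both mdagg-3 libraries, and the medians were near 0 in the 4 libraries of the other lines. The median ratio of mdagg-3 to wt in edgeR's fit was 0.499.

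Most features of the run shared that size. The log2 differences ranged from -3.45 to -0.256, and both mdagg-3 libraries lay below both wt libraries in 14 of the 15 (16.4% of all tested features). Of the 15, 11 were lower at an unadjusted edgeR p under 0.05 (1.16% of all) and 3 met the 2-fold rule (0.982% of all). Nothing is read from these counts, since the run was outlined by its values. The eighth feature of the run held 2069 and 2345 reads in wt, 868 and 1054 in mdagg-3, 1984 and 1836 in mdagg-2 and 2307 and 2013 in mdagg-4. edgeR gave a log2 difference of -1.07 ± 0.2 (SE) and an adjusted p of 1. The feature with the largest difference, the sixth, held 1742 and 2457 reads in wt and 222 and 118 in mdagg-3. In mdagg-2 it held 206 reads in replicate 1 and 2103 in replicate 2, and in mdagg-4 964 and 3726. The third feature also differed between the replicates of the other lines, with 191 and 475 reads in mdagg-2 and 426 and 941 in mdagg-4, beside 392 and 612 in wt and 99 and 153 in mdagg-3. The authors' deposited table lists 6 of the 15 as lower.

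The borders of the run were set after its values were seen, so its contrast with the flanks follows in part from that choice. The first feature of the run had a log2 difference of -0.998 and the last -0.561. The 20 tested features before the run had a median log2 difference of -0.0015 with a lowest value of -0.382. The 20 after the run had -0.028 with a lowest value of -0.458. Summed over the 15 features, the level was 271 and 307 CPM in wt, 119 and 116 in mdagg-3, 224 and 302 in mdagg-2 and 264 and 319 in mdagg-4. No cause was tested, and no DNA was measured in these samples.

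**Figure D5:**
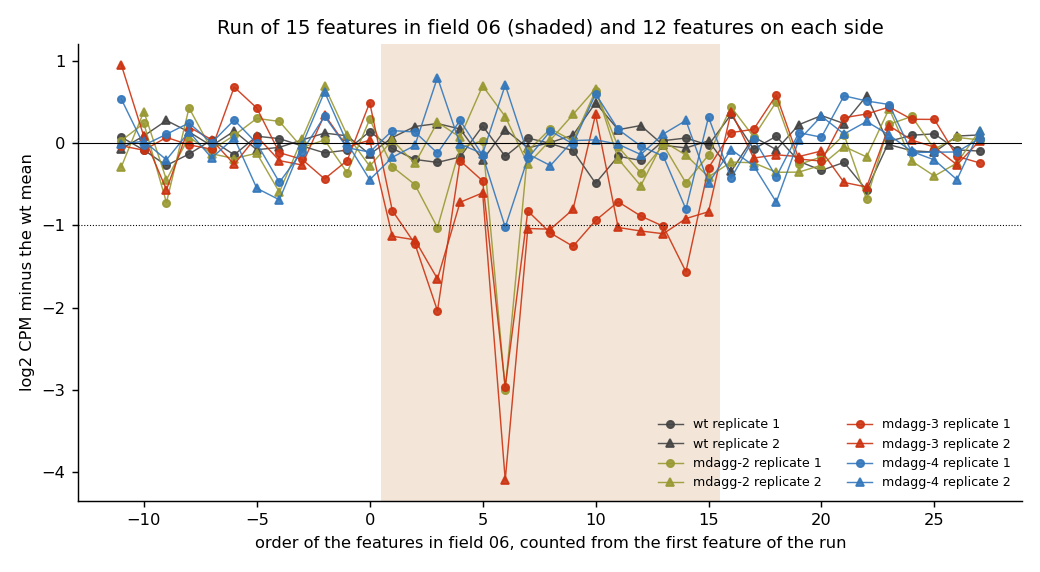
Log2 CPM minus the wt mean for the 15 tested features of the field 06 run (shaded) and 12 features on each side, 1 line per library, with a dotted line at -1. Both mdagg-3 libraries (red) fall to about -1 within the run (medians -0.941 and -1.04) and return to 0 outside it; the other lines stay near 0 except at single features.

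To see whether other stretches behaved likewise, medians were taken over 22041 overlapping windows of 10 neighbouring features with a mean above 3 CPM, a scan added after the run was seen. In 11 windows the median log2 difference was -0.75 or lower, 8 of them in the field 06 run or across its border and 3 in field 11. No window (0) reached 0.75, and the highest, in field 14, had 0.732. The lowest median outside fields 06 and 11 was -0.642.

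The windows of field 11 were of another make. The stretch at positions 268 to 279 of the 3170 identifiers of that field had 9 tested members. Some of them share a length of 411 bases and similar profiles, so reads may be shared and the 9 need not be separate. The medians from the wt mean were -0.835 and -1.59 in the mdagg-3 libraries. These medians stood at -2.64 in mdagg-2 replicate 1 and 0.0967 in replicate 2, and at -0.272 and 0.6 in the mdagg-4 libraries. Within this stretch the log2 differences of mdagg-3 from wt ranged from -1.42 to 0.821, and 0 of the 9 had an unadjusted edgeR p under 0.05, although the authors' deposited table lists 5 as lower. Like the 318 lower features, this stretch differed between the mdagg-2 replicates, while in the field 06 run the medians of both replicates lay near 0 and single features, the third and the sixth among them, differed between the replicates.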

How the data were processed

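The authors deposited 1 Salmon-style table per library. Per the file headers, its columns are feature length, TPM and estimated count (an expected count, 67.9% of values whole). The submitters' processing notes name Salmon and DESeq2 without versions, and neither build nor annotation was given in what was used here. The authors also deposited log2 fold changes and p-values of mdagg-3 against wt, which were copied; 12 per-library columns of that table were not used.

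Estimated counts were rounded, filtered with filterByExpr, scaled with TMM and tested with edgeR 4.0.16 (R 4.3.3) by the quasi-likelihood F test, 1 mean per group over 8 libraries, with Benjamini-Hochberg adjustment and a threshold of 0.05. SE is the log2 difference divided by the square root of F. Log2 CPM used a prior count of 2. DESeq2 1.42.0 was an alternative, and the fit was tested on simulated data. With no names matched (0 of 52311), the gene lists had no members; the naming rule then gave 2 identifiers per direction with the smallest p at 1 CPM or more. Members and lists were chosen with earlier results of these data known. P-values set a difference against the spread between the 2 leaf bulks of a group, taken over all 4 groups in the fit of 8 libraries. Counts near 0 are limited by counting error.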

Additional observations from a re-analysis of the deposited data

How the results depend on the processing

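In edgeR 0 features were called in each direction on all 8 libraries, with RLE factors, without the low-count filter, with the 4 libraries alone, with the replicate block and without each library in turn (0 to 0 higher and lower). DESeq2 called 31 higher and 9 lower on 8 libraries and 116 and 361 on 4, and edgeR on 4 libraries without the filter, an alternative chosen after seeing the data, called 104 and 326. The cause was not tested. Features at an unadjusted p under 0.05 numbered 1014, and 2290 with 4 libraries, 1936 in DESeq2 on 4 libraries, 2832 with 4 libraries and no filter, and 477 to 1955 without 1 library each (477 without wt replicate 2, 1955 and 1952 without mdagg-2 replicates 1 and 2). The labels do not say whether a replicate number marks the same experiment in every group, and the correlations of replicate deviations between groups ran from -0.31 (wt and mdagg-3) to 0.53 (mdagg-2 and mdagg-4). The replicate block gave 1461 features at an unadjusted p under 0.05 on 8 libraries and 1516 on 4, with 0 calls. The crossed pairing on the 4 libraries, built from the value of -0.31 after seeing the data, called 482 higher and 746 lower and left 4000 features with unadjusted p below 0.05. This fit has 1 residual degree of freedom and no basis in the labels, and supports nothing.

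The 2-fold rule gave 169 higher and 319 lower with RLE factors, 213 and 369 with a prior count of 0.5, and 240 and 382 without the filter. Without 1 of the 4 libraries, which loosens the rule, it gave 387 to 875 higher and 575 to 875 lower (added after seeing the data). The field 14 median was 0.082 to 0.14 and the largest median of another field -0.039 to 0.032 without 1 library each. The field 06 run kept a median between -1.04 and -0.936 in all 6 alternatives tried. The field 10 median of -0.562 turned to 1.13 without mdagg-3 replicate 1 and was -2 without replicate 2. The median absolute log2 difference was largest under 1 CPM, at 0.478, beside 0.138 from 10 to 100 CPM. Whether depth accounts for this was not tested.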
